A study of Saccharomyces cerevisiae with 6 samples.

Results

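The nuclear genome of *S. cerevisiae* encodes most of the proteins of the mitochondrial respiratory chain and of ATP synthase. The genes described here are the 3 NADH dehydrogenase genes, 4 succinate dehydrogenase (complex II) genes, 9 bc1 complex genes, 2 cytochrome c genes, 9 cytochrome c oxidase (COX) genes and 13 ATP synthase genes, together with *HAP4*, which encodes an activator of respiratory genes. They were taken by their systematic names and make up 41 of the 7445 features of the count table. All 41 passed the filter on low counts, as did 6397 features in all. The list was drawn up with the mock and auxin comparison already known, so every difference between the groups is given as a description.

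RNA was sequenced from 3 mock-treated and 3 auxin-treated cultures of the *RIO1-AID* strain, a W303 strain in which the protein kinase Rio1 carries an auxin-inducible degron. Both groups carried the degron allele (RIO1-AID::KanMX4) and a second construct, PADH1-OsTIR1-9myc::URA3, in which the *ADH1* promoter drives the rice F-box protein OsTIR1 that marks degron proteins for destruction once auxin is added. The cultures grew asynchronously and exponentially in YPDA, a rich glucose medium, at 25 °C, and received either a mock or auxin for 1 h, the auxin at 500 µM, a concentration that the methods lower partway through. No culture with auxin but without the degron was analysed here, so an effect of auxin itself and an effect of losing Rio1 cannot be told apart. The 4 genes expressed in mating type a cells (*MFA1*, *MFA2*, *STE2*, *BAR1*) summed to between 1441 and 1616 counts per 1000000 counts (CPM) per culture, and 3 alpha-specific genes to between 2.35 and 2.99 CPM.

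Unlike animal mitochondria, those of *S. cerevisiae* lack a proton-pumping complex I. Single-protein NADH dehydrogenases on either face of the inner membrane, together with complex II, pass electrons to ubiquinone, from which they travel through the bc1 complex and cytochrome c to COX, and ATP synthase uses the resulting proton gradient to make ATP. In glucose medium the genes of this pathway are partly repressed. Many are activated by the Hap2/3/4/5 complex, which binds the sequence CCAAT through Hap2, Hap3 and Hap5 and activates through Hap4, the subunit whose amount follows the carbon source.

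The CCAAT box was therefore looked for, on both strands, in the 500 bases before each start codon in the R64 assembly with the RefSeq annotation. It was found before 37 of the 41 genes (90.2%), against 62.4% of 6000 protein-coding genes, and was not matched before *NDE2*, *CYT1*, *CYC1* and *COX4*. The longer motif ACCAATNA, chosen after the data had been seen and always containing the shorter one, was found before 19 of the 41 genes (46.3%) and before 8.6% of all genes. One window of 26 bases is shown for at least 1 gene of the NADH dehydrogenases and of each complex and for *HAP4*. The other 22 genes, both cytochrome c genes among them, lack the motif in these 500 bases. The windows are a selection from 20 matches and do not show their full variety. Matches reading ACCAATTA, before *NDE1*, *COX5B*, *COX6*, *ATP7* and *ATP14*, are not shown. Nor are the outermost matches, at -351 (*COR1*) and -10 bases (*NDE1*) from the start codon. Each window shown is written 5′ to 3′ on the strand of its gene, with the 8 bases of the motif in capitals.
NDI1 (chrXIII:30019-30044, minus strand): ttcattcggACCAATCAtatgaaggc
SDH1 (chrXI:171431-171456, minus strand): cgggggtggACCAATCAcagcgcaga
RIP1 (chrV:107003-107028, plus strand): ccataacggACCAATCAgcgttttgc
QCR7 (chrIV:1496714-1496739, minus strand): cttgttttgACCAATCAggagcgacg
COX8 (chrXII:910151-910176, minus strand): acggtttgcACCAATCAtacgagaga
COX13 (chrVII:144586-144611, plus strand): ttttttcccACCAATGAgaggcggta
ATP4 (chrXVI:408918-408943, minus strand): caatattgaACCAATCAcgacgcttt
ATP17 (chrIV:1228372-1228397, plus strand): acggagagaACCAATCAtatcgaagg
HAP4 (chrXI:232123-232148, plus strand): cacacatatTTATTGGTctcctagta

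In the window of *HAP4* the motif lies on the opposite strand and reads in reverse complement. Of the 20 matches before the 41 genes, 17 were on the strand of the gene, and 12 (60.0%) began between 250 and 150 bases before the start codon, a range set after the positions had been seen. Before all other genes there were 523 matches, of which 248 (47.4%) were on the strand of the gene and 20.3% began in that range. The genes with the longer motif did not stand out among the 41 by their response, with a median log2 fold change (auxin minus mock) of -0.47 over 19 genes against -0.50 over the 22 without it. A match is a stretch of letters and says nothing of binding.

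**Figure D1:**
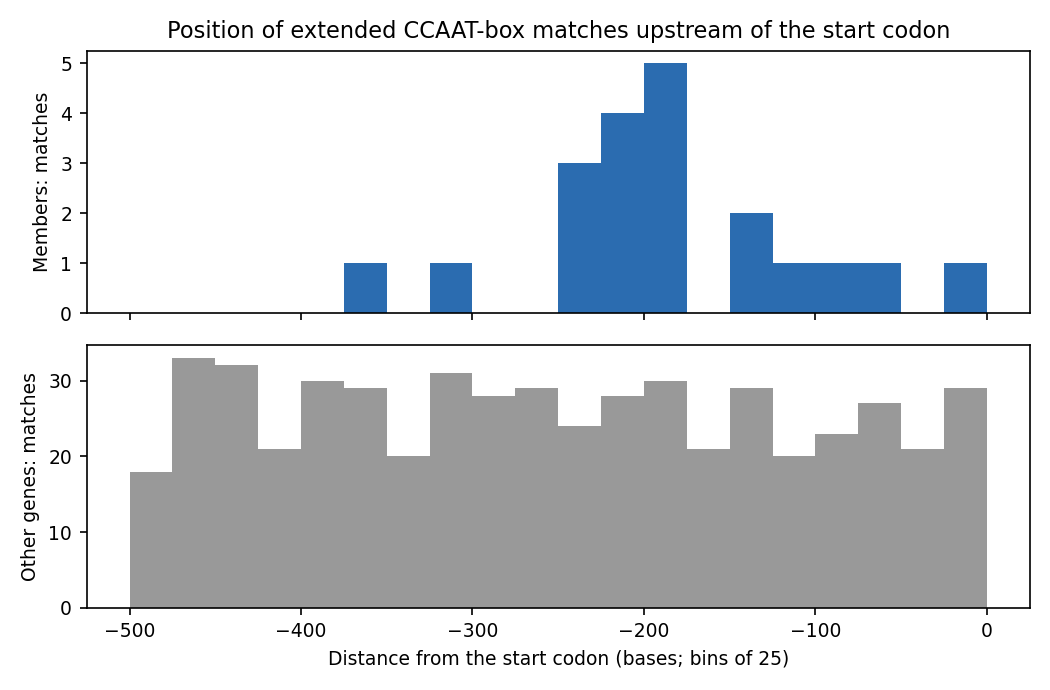
Number of ACCAATNA matches (vertical axis) by distance from the start codon in bins of 25 bases (horizontal axis, bases), for the 41 genes (top) and for all other protein-coding genes (bottom). The 20 matches of the 41 genes gather between 250 and 150 bases before the start codon, where 12 of them begin, while the 523 of other genes are spread over the 500 bases.

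The cultures held between 110119744 and 125303818 counts each, and the 41 genes took 0.921, 0.891 and 0.928% of them in the mock-treated and 0.756, 0.749 and 0.743% in the auxin-treated cultures. The paper reports fewer mapped read pairs per sample than these totals, a difference that the sources used here do not explain. They also do not say whether duplicate reads were removed before counting. Values below are CPM over library totals scaled with edgeR's TMM factors, which set the log2 fold change of the median feature to 0.00. A gene is said to be called lower or higher where the p-value of edgeR's quasi-likelihood test, adjusted over all 6397 tested features, did not exceed 0.05. By this rule 77.0% of all tested features were called, 38.5% lower and 38.5% higher, so a call alone says little about a gene. The RNA of bulk cultures gives shares, so that a lower share and less RNA per cell cannot be told apart. Counts of replicate cultures spread wider than sampling would give (chi-square per degree of freedom 6.22 to 34.7), so errors come from the replicates. The mRNA of *RIO1* itself, which does not report on the degraded protein, stood at 19.8, 21.9 and 22.8 CPM in mock-treated and 40.9, 39.4 and 42.7 CPM in auxin-treated cultures (log2 fold change 0.93 ± 0.05 SE).

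In the auxin-treated cultures, mRNAs for every complex of the respiratory chain and for ATP synthase took a smaller share than in the mock-treated ones. On the TMM scale 39 of the 41 genes were called lower and 0 higher, *NDE2* and *CYC7* being the exceptions, and for the same 39 every auxin-treated culture lay below every mock-treated one. Over all tested features, every auxin-treated culture lay below every mock-treated one for 39.3%. The median log2 fold change of the 41 genes was -0.47, with a range of -1.20 to -0.01, and 11.5% of all tested features were at or below that median. Most changes were small: 1 gene (*NDI1*) was lower by a log2 fold change of at least 1, as were 2.55% of all tested features, and 0 were higher by as much, against 7.72% of all. A further 16 genes lay between 0.5 and 0.8 below zero on the log2 scale and 17 between 0.3 and 0.5 below.

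How these values are read depends on the scaling of the libraries. Totals of counts alone moved the median of all features to 0.25, and totals of counts per coding kilobase (TPM-total scaling, added after the data had been seen) moved it to 0.39. The 41 genes moved with it: their median stayed 0.47 below that of all features under each of 5 scalings, and all 41 stayed below it. Against zero, total-count scaling left 33 called lower and 1 higher (16.8% and 64.6% of all features), and TPM-total scaling 20 lower and 3 higher (10.6% and 76.3%). The 20 genes called lower under all 5 scalings were *NDI1*, the 4 complex II genes, *COR1*, *CYT1*, *QCR10*, *CYC1*, *COX4*, *COX5B*, *COX6*, *COX9*, *COX12*, *ATP1*, *ATP2*, *ATP3*, *ATP15*, *ATP16* and *ATP17*. Differences between members, and their distance from the median of all features, do not depend on the scaling, since it shifts all features alike.

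**Figure D2:**
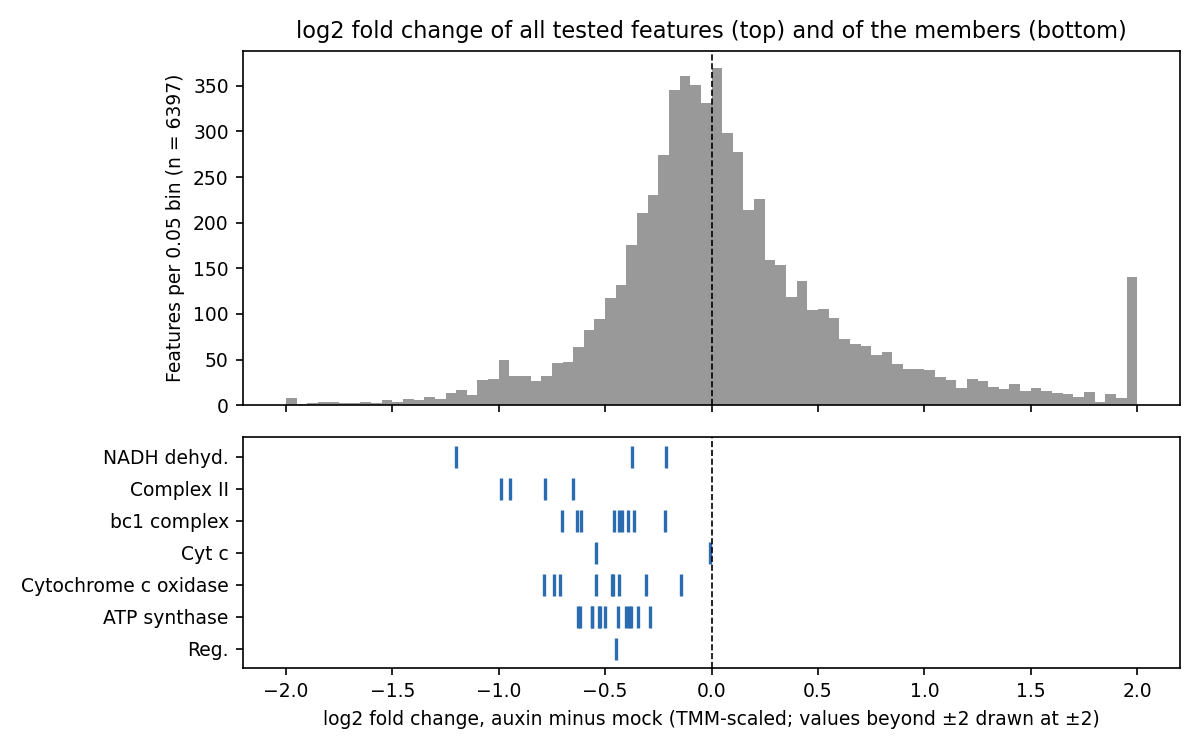
Log2 fold changes (auxin minus mock, TMM-scaled) of all 6397 tested features (top, features per bin of 0.05, values beyond 2 drawn at the edge) and of the 41 genes by complex (bottom, 1 tick per gene). The dashed line marks 0, and all 41 ticks lie left of it, between -1.20 and -0.01. Under total-count scaling 37 and under TPM-total scaling 31 of the 41 stay below 0.

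NADH enters the chain through Ndi1 on the matrix face of the inner membrane and through Nde1 and Nde2 on its outer face. *NDI1* (YML120C, chrXIII:28266-29807) had 113, 111 and 113 CPM in mock-treated and 49.0, 49.4 and 48.3 CPM in auxin-treated cultures, the lowest log2 fold change among the 41 genes at -1.20 ± 0.02 (SE; adjusted p = 7.2e-10 in edgeR's quasi-likelihood test). *NDE1* (YMR145C, chrXIII:554793-556475) had 898, 903 and 913 CPM against 696, 701 and 697 CPM, a log2 fold change of -0.37 ± 0.02 (adjusted p = 2.5e-07 in the same test) that turned to 0.01 under TPM-total scaling. For both genes the replicates lay close together and the groups did not overlap. *NDE2* (YDL085W, chrIV:303211-304848), the paralog of *NDE1*, had 1.45, 1.25 and 0.885 CPM against 1.25, 0.921 and 0.923 CPM, with overlapping groups (log2 fold change -0.21 ± 0.19 SE, adjusted p = 0.33 in edgeR's quasi-likelihood test). Its counts ran from 90 to 164 per culture, and its log2 fold change was 0.03 under total-count and 0.17 under TPM-total scaling. The gene for the matrix-facing enzyme thus showed the larger difference: in auxin-treated cultures *NDI1* stood at 43.5% of its mock mean and the sum of the 3 genes at 73.4%.

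Complex II, which oxidises succinate and is shared with the tricarboxylic acid (TCA) cycle, was the complex with the lowest values as a whole. Its 4 genes summed to 613, 597 and 608 CPM in mock-treated cultures and to 339, 340 and 327 CPM in auxin-treated ones, 55.3% of the mock mean. *SDH2* (YLL041C, chrXII:53131-53931), for the iron-sulfur subunit, had 159, 154 and 149 CPM against 79.4, 80.6 and 72.1 CPM, a log2 fold change of -0.99 ± 0.04 (SE; adjusted p = 3.1e-08 in edgeR's quasi-likelihood test). *SDH1*, for the flavoprotein, stood beside it at -0.95, and *SDH4*, for a membrane anchor, at -0.78. *SDH3* (YKL141W, chrXI:179667-180263), for the cytochrome b subunit, had 140, 136 and 138 CPM against 89.6, 90.5 and 83.4 CPM, the smallest difference of the 4 at -0.65 ± 0.03 (SE; adjusted p = 8.6e-08). All 4 were called lower under every scaling tried, and the catalytic pair *SDH1* and *SDH2* lay below the membrane pair. The 3 homologs of complex II genes did not share this: *SDH1b* was called higher (0.87), from 0.556, 0.682 and 0.668 CPM to 1.12, 1.15 and 1.21 CPM, while *SHH3* (-0.48, adjusted p = 0.086, 19 to 29 counts per culture) and *SHH4* (0.01, adjusted p = 0.93) were not called in edgeR's quasi-likelihood test. The longest run of bases shared by *SDH1* and *SDH1b* was 23.

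The bc1 complex passes electrons from ubiquinol to cytochrome c. Its 9 genes summed to 2023, 2003 and 2066 CPM against 1453, 1445 and 1425 CPM, 71.0% of the mock mean. *QCR10* (YHR001W-A, chrVIII:107826-108122), for a small subunit, had 72.0, 63.7 and 75.7 CPM against 44.0, 42.5 and 43.4 CPM, the lowest log2 fold change of the complex at -0.70 ± 0.06 (SE; adjusted p = 1.8e-06 in edgeR's quasi-likelihood test). *QCR8* (YJL166W, chrX:106434-106718), for another small subunit, had 153, 142 and 149 CPM against 134, 128 and 119 CPM, the highest at -0.22 ± 0.04 (SE; adjusted p = 0.00095), and turned to 0.03 under total-count and 0.16 under TPM-total scaling. In both cases the groups stayed apart, but for *QCR8* the lowest mock-treated culture and the highest auxin-treated one were near each other. Between them lay the core proteins *COR1* (-0.63) and *QCR2* (-0.46), cytochrome c1 (*CYT1*, -0.62), the Rieske iron-sulfur protein *RIP1*, and the small subunits *QCR9* (-0.42), *QCR7* (-0.39) and *QCR6* (-0.36, but 0.02 under TPM-total scaling). The 4 genes for core and redox proteins, grouped after their values had been seen, had a median of -0.54 and the 5 for small subunits one of -0.39.

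Cytochrome c, which carries electrons from the bc1 complex to COX, has an aerobic form encoded by *CYC1* and a form encoded by *CYC7* that is used more when oxygen is low. *CYC1* (YJR048W, chrX:526335-526664) had 363, 363 and 354 CPM against 249, 251 and 242 CPM, a log2 fold change of -0.54 ± 0.02 (SE; adjusted p = 4.2e-08 in edgeR's quasi-likelihood test). *CYC7* (YEL039C, chrV:79636-79977) had 4.05, 2.93 and 3.32 CPM against 3.31, 3.26 and 3.68 CPM, with overlapping groups and a log2 fold change of -0.01 ± 0.12 (SE; adjusted p = 0.96). The sign for *CYC7* was not settled: it became 0.24 under total-count scaling and 0.38 under TPM-total scaling, which called it higher. The longest run of bases shared by the pair was 35, shorter than a read.

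COX, the terminal oxidase, has its catalytic core encoded in the mitochondrion and the subunits listed here in the nucleus. The 9 nuclear genes summed to 999, 987 and 1011 CPM against 690, 694 and 672 CPM, 68.6% of the mock mean. *COX4* (YGL187C, chrVII:149704-150171) was lowest, with 246, 235 and 241 CPM against 140, 144 and 135 CPM (log2 fold change -0.79 ± 0.03 SE, adjusted p = 1.7e-08 in edgeR's quasi-likelihood test). *COX13* (YGL191W, chrVII:144808-145197) was highest, with 82.7, 81.1 and 87.3 CPM against 73.7, 74.3 and 79.5 CPM (-0.14 ± 0.04 SE, adjusted p = 0.0067), and was called higher at 0.11 under total-count and 0.24 under TPM-total scaling. Apart from *COX5A* and *COX5B*, given next, the others ranged from *COX6* (-0.71) through *COX9* (-0.54), *COX12* (-0.47) and *COX8* (-0.46) to *COX7* (-0.31, but 0.08 under TPM-total scaling).

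The fifth subunit of COX comes in 2 forms, the aerobic *COX5A* and the hypoxic *COX5B*. *COX5A* (YNL052W, chrXIV:531725-532186) had 126, 125 and 141 CPM against 96.2, 95.2 and 98.5 CPM, a log2 fold change of -0.43 ± 0.04 (SE; adjusted p = 1.1e-05 in edgeR's quasi-likelihood test). *COX5B* (YIL111W, chrIX:155222-155765) had 6.91, 6.05 and 6.48 CPM against 4.02, 3.35 and 4.24 CPM, one of -0.74 ± 0.09 (SE; adjusted p = 6e-05). On the TMM scale both forms were lower without overlap of the groups. Under TPM-total scaling *COX5B* was still called lower (-0.36) and *COX5A* was not called (-0.05). The rarer form had the larger difference, a comparison that was not tested. Among the rarer genes of the 3 pairs of paralogs, *COX5B* was called lower, and *NDE2* and *CYC7* were not called.

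ATP synthase contributed the largest part of these mRNAs. Its 13 genes summed to 4693, 4759 and 4833 CPM in mock-treated and to 3302, 3278 and 3283 CPM in auxin-treated cultures, 69.0% of the mock mean. *ATP15* (YPL271W, chrXVI:30079-30267), for the epsilon subunit of the central stalk, had 43.9, 44.4 and 53.4 CPM against 28.5, 28.5 and 34.8 CPM, the lowest log2 fold change of the enzyme at -0.63 ± 0.09 (SE; adjusted p = 0.00017 in edgeR's quasi-likelihood test). *ATP14* (YLR295C, chrXII:721999-722373), for subunit h of the peripheral stalk, had 64.8, 63.0 and 70.9 CPM against 54.0, 52.4 and 56.2 CPM, the highest at -0.29 ± 0.05 (SE; adjusted p = 0.00024), and stood at 0.10 under TPM-total scaling. The 13 genes therefore spanned a narrower range than those of the bc1 complex or COX.

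The genes of the enzyme are given by its parts, which were grouped after the values had been seen. The 5 genes for F1, the catalytic head with its central stalk (*ATP1*, *ATP2*, *ATP3*, *ATP15*, *ATP16*), lay between -0.63 and -0.52 and were called lower under all 5 scalings. The 4 genes for the peripheral stalk that holds the head in place (*ATP4*, *ATP5*, *ATP7*, *ATP14*) lay between -0.39 and -0.29, and under TPM-total scaling between -0.00 and 0.10. The 4 genes for small membrane subunits (*ATP17*, *ATP18*, *ATP19*, *ATP20*) lay between -0.53 and -0.40, a range that overlapped that of the head, since *ATP17* (-0.53) was marginally below *ATP3* (-0.52). The ranges of the head and of the peripheral stalk did not overlap, but no test was made of this difference.

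**Figure D3:**
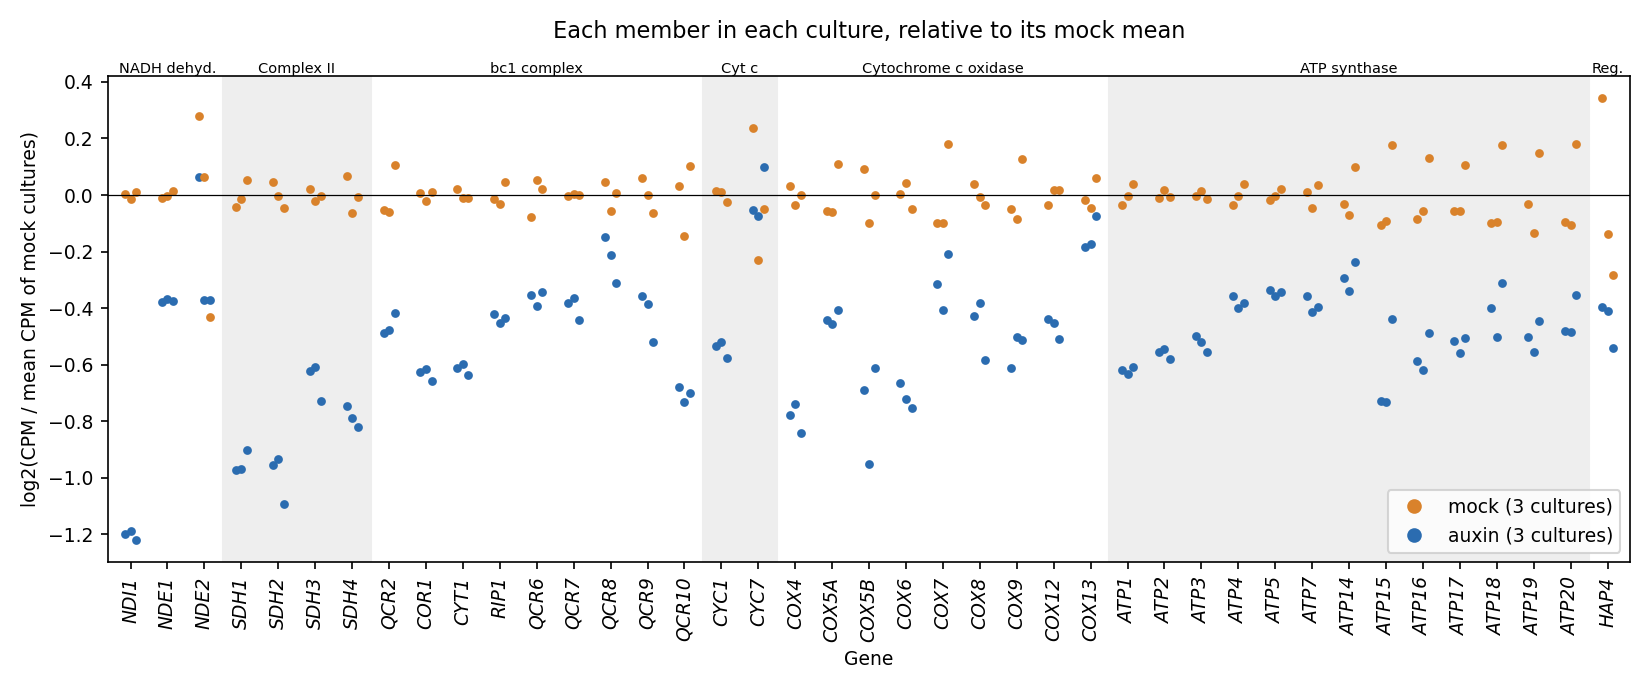
Log2 of each culture's CPM (TMM-scaled) over the mean of the mock-treated cultures (vertical axis) for each of the 41 genes (horizontal axis, grouped by complex), with 1 point per culture, 3 mock-treated in orange and 3 auxin-treated in blue. For 39 genes all blue points lie below all orange points; *NDE2* and *CYC7* overlap. Under TPM-total scaling 10 of the 41 genes have a log2 fold change above 0.

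Added over the 40 genes other than *HAP4*, the mock-treated cultures had 9708, 9728 and 9902 CPM and the auxin-treated cultures 6783, 6763 and 6698 CPM. The mock mean was 9779 ± 107 and the auxin mean 6748 ± 44.2 CPM (SD, n = 3), so the summed level stood at 69.0%. The complexes other than complex II lay close to this value, from 68.6% for COX to 73.4% for the NADH dehydrogenases. These percentages hold on the TMM scale. The log2 ratio of the summed level was -0.54 there, -0.29 under total-count and -0.15 under TPM-total scaling. Over all settings tried, the highest log2 ratio was -0.47 for complex II and -0.16 for COX. It was -0.15 for ATP synthase, -0.15 for cytochrome c, -0.11 for the bc1 complex and -0.06 for the NADH dehydrogenases.

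Replicates of a group were close for most genes. The coefficient of variation among mock-treated cultures had a median of 3.60% and ran from 0.213% (*QCR7*) to 23.9% (*NDE2*), and among auxin-treated cultures a median of 2.80%, from 0.432% (*NDE1*) to 18.2% (*NDE2*). Several short genes, such as *ATP15*, *ATP20* and *COX7*, were highest in replicate 3 of both groups. Of the 23 members with coding sequences under 500 bases, 18 were higher in mock replicate 3 than in the mean of the other mock-treated cultures (median log2 difference 0.09), against 10 of the 18 longer ones (0.02). In auxin replicate 3, compared with the other auxin-treated cultures, this held for 15 of 23 and 5 of 18. Among all protein-coding features under 500 bases, 455 of 698 were higher in mock replicate 3 and 390 of 698 in auxin replicate 3. Among the longer features these numbers were 2332 and 2234 of 4855. The part of transcript length in the spread of these genes was not tested.

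Among mock-treated cultures *HAP4* (YKL109W, chrXI:232227-233891) varied almost as much as *NDE2*, with a coefficient of variation of 23.7%. It had 218, 156 and 141 CPM in mock-treated cultures and 131, 129 and 118 CPM in auxin-treated ones. The groups did not overlap, but mock replicate 1 stood well above the other mock-treated cultures. The log2 fold change was -0.45 ± 0.13 (SE; adjusted p = 0.011 in edgeR's quasi-likelihood test), and -0.25 (adjusted p = 0.0013) without mock replicate 1. Under total-count scaling it was -0.20 (adjusted p = 0.19) and no longer called. *ROX1*, which encodes a repressor of hypoxic genes and was named after its values were seen, was likewise highest in mock replicate 1, with 286, 232 and 224 CPM against 210, 212 and 187 CPM.

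The partners of Hap4 did not move together. *HAP5* had 11.5, 11.8 and 11.99 CPM against 7.82, 7.99 and 8.71 CPM (log2 fold change -0.53 ± 0.05 SE, adjusted p = 1.3e-05 in edgeR's quasi-likelihood test), and was called lower under all 5 scalings. *HAP2* had 28.3, 26.2 and 26.5 CPM against 22.4, 22.8 and 23.6 CPM (-0.24 ± 0.04 SE, adjusted p = 0.00044), but its log2 fold change was 0.01 under total-count and 0.15 under TPM-total scaling. *HAP3* had 9.22, 10.6 and 9.99 CPM against 10.1, 10.2 and 10.3 CPM (0.03 ± 0.06 SE, adjusted p = 0.60). *HAP2* and *HAP3* were both called higher under TPM-total scaling (0.15 and 0.42). Of the 3 DNA-binding subunits, then, *HAP5* alone was called lower under every scaling tried. *HAP1*, for a heme-responsive activator of respiratory genes outside this complex, was called higher under every scaling tried, at 200, 196 and 191 CPM against 217, 223 and 217 CPM (0.16 ± 0.03 SE, adjusted p = 0.00025 in edgeR's quasi-likelihood test).

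**Figure D4:**
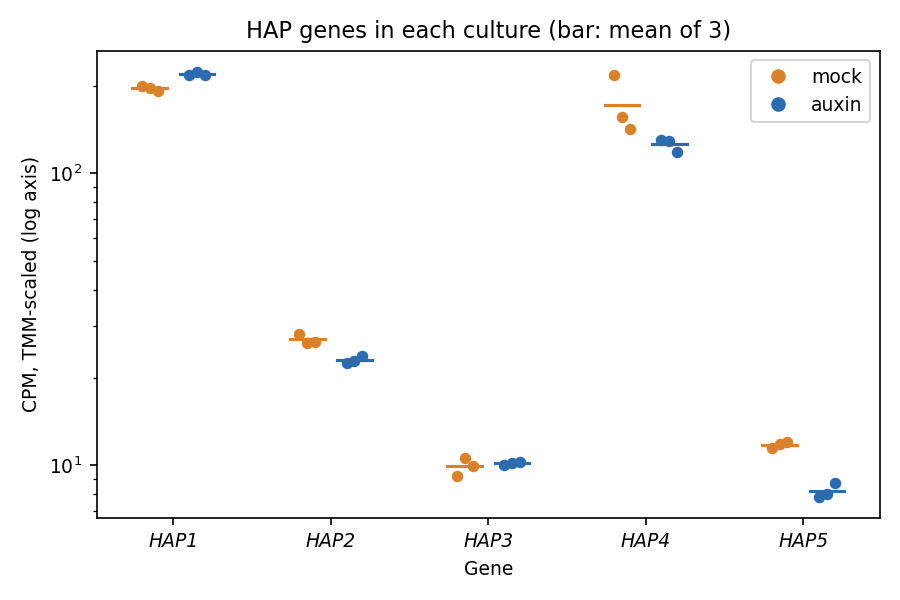
CPM (TMM-scaled, log axis) of *HAP1*, *HAP2*, *HAP3*, *HAP4* and *HAP5* in each of the 3 mock-treated (orange) and 3 auxin-treated (blue) cultures, with a bar at each mean. *HAP4* in mock replicate 1 (218 CPM) stands above the other mock-treated cultures, and *HAP2*, lower here in every auxin-treated culture, has a log2 fold change of 0.01 under total-count scaling.

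Levels of different genes were compared per coding length, as TPM (counts per coding base, scaled to a sum of 1000000 over 6013 protein-coding features). In mock-treated cultures *ATP2*, for the catalytic beta subunit, was the most abundant of the 41 at 1369 ± 13.1 TPM (SD, n = 3). *CYC1* followed at 1043 ± 24.4, *COX8* at 750 ± 30.0, *ATP1* at 639 ± 16.6 and *NDE1* at 514 ± 8.54 TPM, and these neighbours lay further apart than their SDs. *NDE1* and *QCR6* (506 ± 15.2 TPM) came next to each other and did not differ beyond their spread. The lowest were *NDI1* at 69.7, *COX5B* at 13.6, *CYC7* at 9.62 and *NDE2* at 0.697 TPM, so that the rarer form of each pair was far below its partner in the mock-treated cultures. Subunits of one complex need not have like mRNA levels: the 9 bc1 genes lay within 2.11-fold of each other (240 to 506 TPM) and the 4 complex II genes within 2.25-fold (98.1 to 221 TPM), while the 13 ATP synthase genes spanned 12.2-fold (112 to 1369 TPM).

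**Figure D5:**
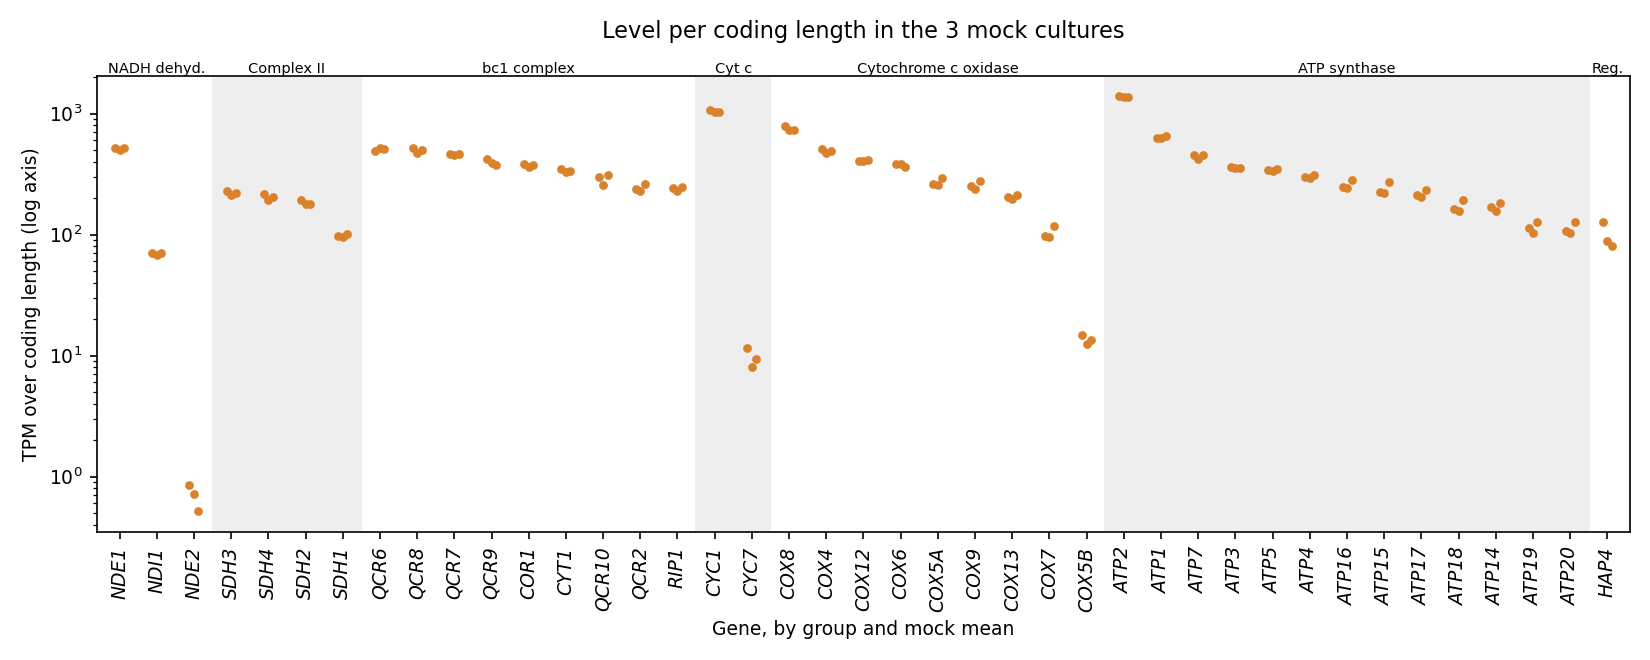
TPM over coding length (log axis) of the 41 genes in the 3 mock-treated cultures, 1 point per culture, sorted by mean within each complex. *ATP2* (1369 TPM) and *CYC1* (1043 TPM) lead, and *COX5B*, *CYC7* and *NDE2* lie far below their complexes.

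The mitochondrial genome encodes 7 partners of these proteins. *COX1* (-0.32), *COX2* (-0.30), *COX3* (-0.30), *COB* (-0.39) and *OLI1* (-0.41) were called lower on the TMM scale, *ATP6* (-0.26, adjusted p = 0.090) and *ATP8* (0.20, adjusted p = 0.52, 31 to 73 counts per culture) were not in edgeR's quasi-likelihood test, and under TPM-total scaling none of the 7 was called and *COX1*, *COX2*, *COX3* and *ATP6* turned to above 0. *COX1* and *COB* overlap reading frames in their own introns, so their counts are less certain. The median of the 7 mitochondrial genes (-0.30) lay between the medians of the 41 nuclear genes (-0.47) and of all features (0.00). Their single values ran from -0.41 to 0.20, and the 6 below zero lay within the range of the nuclear genes. On the TMM scale 38.5% of all tested features were called lower.

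The other genes of the pathway, listed by function, were called in both directions. Of 99 such genes, 61 were called lower, 17 higher and 21 neither, with a median log2 fold change of -0.23. Total-count scaling gave 30 lower and 37 higher and TPM-total scaling 19 and 53. Of all tested features, 38.5% were called lower and 38.5% higher on the TMM scale. Under total-count scaling these shares were 16.8% and 64.6%, and under TPM-total scaling 10.6% and 76.3%. The TCA cycle enzymes came closest to the respiratory genes: 13 of 13 were called lower (median -0.55), with *CIT1*, for citrate synthase, the lowest at -1.01. Under TPM-total scaling 10 of these 13 were still called lower and 1 higher.

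Assembly factors help to build the complexes without being part of them. Of the 22 COX assembly genes 14 were called lower and 1 higher (median -0.20), but 1 lower and 16 higher under TPM-total scaling. That scaling called 10.6% of all tested features lower and 76.3% higher, against 38.5% each on the TMM scale. *COX19*, for a copper-related factor of the intermembrane space, was the highest at 0.73, and *PET117* the lowest at -0.57. *COX19* had 23.0, 21.2 and 19.9 CPM against 35.8, 37.3 and 33.0 CPM, and was higher in each auxin-treated culture than in any mock-treated one. Of the 11 factors for complexes II and III and cytochrome c, 5 were called lower and 2 higher, from *SDH8*, a chaperone of the flavoprotein (-0.66), to *CYC3*, the lyase that attaches heme to cytochrome c (0.31). Of the 9 for ATP synthase, 5 were called lower and 3 higher, from *ATP12*, a chaperone for the alpha subunit (-0.37, but 0.01 under TPM-total scaling), to *INA22* (0.26). These lists had medians of -0.17 and -0.07, which TPM-total scaling turned to 0.21 and 0.31, below the 0.39 of all features under that scaling. No test compared assembly factors with subunits. On the TMM scale 18 of the 22, 8 of the 11 and 5 of the 9 factors had log2 fold changes below zero. All of these lay within the range of the subunits (-1.20 to -0.01).

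Another list held 4 proteins that dimerise, inhibit or modulate ATP synthase. All 4 were called lower, with a median of -0.94: *STF2* (-1.15) and *STF1* (-1.02), which modulate or inhibit the enzyme, its inhibitor *INH1* (-0.87), and *TIM11*, for the dimer-forming subunit e (-0.31, but 0.08 under TPM-total scaling). Of all tested features, 38.5% were called lower. *STF2* had 6.18, 5.48 and 6.14 CPM against 2.73, 2.22 and 3.06 CPM, and *TIM11* 58.8, 59.4 and 63.5 CPM against 49.8, 47.1 and 49.9 CPM. *STF1*, *STF2* and *INH1* thus lay further below the median feature than any ATP synthase subunit; no test was made of the difference.

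Of 4 supercomplex genes 1 was called lower and 2 higher. *COX26* (-1.47) had 4.74, 4.20 and 2.98 CPM against 1.77, 1.12 and 1.40 CPM, and *RCF3* stood at 0.36. Among 10 activators of mitochondrial mRNAs 4 were called lower and 4 higher, from *CBS1*, for *COB* mRNA (-0.46), to *PET122*, for *COX3* mRNA (0.91). *PET122* went from 8.66, 9.76 and 9.10 CPM to 16.2, 16.8 and 18.6 CPM. The calls of the activators were near the shares of all tested features, 38.5% lower and 38.5% higher. With TPM-total scaling 0 activators were called lower and 7 higher, and 1 supercomplex gene lower and 3 higher. That scaling called 10.6% of all features lower and 76.3% higher.

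Of 8 genes for other electron donors or for membrane carriers 5 were called lower and 2 higher. The shares of all tested features were 38.5% lower and 38.5% higher. With TPM-total scaling 2 of the 8 were called lower and 3 higher, against 10.6% and 76.3% of all features. *CYB2*, the lactate dehydrogenase that feeds cytochrome c directly, had 9.67, 9.19 and 7.21 CPM against 2.89, 2.17 and 2.43 CPM (-1.80), and *AAC3*, the ADP/ATP carrier used when oxygen is low, 2.45, 2.47 and 2.87 CPM against 5.28, 5.03 and 5.61 CPM (1.03). *CYB2* lay further below zero than any of the 41 genes. The remaining regulators, *ROX1*, *RTG1*, *RTG2* and *RTG3*, ranged from -0.28 for *ROX1* (0.10 under TPM-total scaling) to 0.21 for *RTG1*, a gene of the retrograde pathway that reports mitochondrial state to the nucleus.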

How the data were processed

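RNA-Seq libraries of 3 mock-treated and 3 auxin-treated *RIO1-AID* cultures were made by the authors after rRNA removal with a strand-specific kit and sequenced in paired-end mode. Per the labels, reads were processed with Trimmomatic, STAR and bedtools, and aligned to R64. The deposited values are whole-number counts per gene without normalization, and the annotation release is not given in the sources used here. All 6 columns were assigned by name, and 0 were left unused. The treatment field was used for the groups, since a protocol field names auxin for every culture.

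Features were filtered with filterByExpr, scaled with TMM and fitted with the quasi-likelihood test of edgeR 4.0.16 in R 4.3.3 with the condition as the only term, and p-values were adjusted by Benjamini-Hochberg over all 6397 tested features. The code was first checked on simulated data. The common biological coefficient of variation was 3.78%, and the median SE of a log2 fold change was 0.04 at 110119744 to 125303818 counts per culture. The members and all lists were chosen with earlier results of these data known. Full values are given for *HAP4*, the highest and lowest gene of each complex, the paralog pairs, *HAP1* to *HAP5* and *RIO1*; the highest and lowest gene of each other list and the mitochondrial genes are named, except 1 that is not reported here. Alternatives tried were scaling with RLE, upper quartiles or total counts, the Wald test of DESeq2 1.42.0, a filter of at least 10 counts in all samples or none, a block for the replicate number, and omission of single cultures. TPM-total scaling, the motif ACCAATNA, its position range and the grouping of subunits by enzyme part were added after the data had been seen. TPM used RefSeq coding lengths, and motifs were searched with Python 3.11.15. No 100-base stretch of any of the 41 genes recurs in R64, and none of them overlaps another gene of the RefSeq annotation. Overlaps in the annotation used for counting could not be checked.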

Additional observations from a re-analysis of the deposited data

How the results depend on the processing

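RLE scaling, DESeq2, no filter and at least 10 counts in every sample left 39 of the 41 genes called lower. Under upper-quartile, total-count and TPM-total scaling the log2 ratio of the summed CPM of the 40 structural genes (-0.54) was -0.52, -0.29 and -0.15. Total-count and TPM-total scaling gave medians of -0.22 and -0.082, 1 and 3 genes called higher (TPM-total 20 lower), 0 lower by a log2 fold change of at least 1 under either, 30 and 19 of the other lists called lower and 37 and 53 higher. Signs turned for *CYC7* with upper-quartile scaling (0.0072), at least 10 counts (0.0091), total-count (0.24) and TPM-total scaling (0.38), for *NDE2* (0.034 and 0.17), *QCR8* (0.027 and 0.16) and *COX13* (0.11 and 0.24) with the last pair of scalings, and with TPM-total scaling alone for *NDE1* (0.011), *QCR6* (0.023), *COX7* (0.079), *ATP4* (0.0047), *ATP5* (0.039) and *ATP14* (0.10). Both scalings shift all features by construction. Leaving out 1 culture gave medians of -0.52 to -0.47, 39 to 40 called lower, 1 to 2 lower by at least 1 and values of *CYC7* from -0.11 to 0.12. *SDH2* passed -1 without mock replicate 3 (-1.02), auxin replicate 1 (-1.01) or auxin replicate 2 (-1.02), and *NDE2* was called lower without mock replicate 3 (-0.39, adjusted p = 0.049 in edgeR's quasi-likelihood test). With the replicate number as a block, 39 genes were called lower and 0 higher with a median of -0.47, and of the other lists 64 were lower and 18 higher; same-numbered cultures deviated together with r = 0.352, 0.069 and 0.523 across 5751 features, and auxin replicate 2 correlated best with mock replicate 1 (0.342), so the numbers were not taken as pairs.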
